A study of Homo sapiens with 2 samples.

Results

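The transcripts of 10 genes of apoptosis and mitophagy were examined for binding by RBMS3, namely *MCL1*, *BCL2L1*, *BCL2L2*, *BCL2L11*, *BID*, *BAX*, *BAK1*, *BNIP3*, *BNIP3L* and *BCL2L13*. These members were listed by name, and a binding site was counted for a gene when its deleted base lay inside the gene on the same strand (GENCODE release 44, hg38). Of the 27706 sites called across the genome, 35 met this rule, and they fell in 8 of the 10 genes. In 3′ untranslated regions (3′UTRs) there were 32 of these sites, in 6 genes, out of 21222 sites in the 3′UTRs of all protein-coding genes. The other 3 lay in introns, and the coding sequences and 5′UTRs of these genes held none.

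The sites come from CLIP-seq, in which a protein is crosslinked to RNA by ultraviolet light, recovered with an antibody, and the attached RNA is sequenced. The cells were of the triple-negative breast cancer line MDA-MB-231, stably transduced with a lentiviral vector for FLAG-tagged RBMS3, so the mapped protein was made from a transgene with an EF1a promoter, beside the RBMS3 that the line makes itself. There was 1 group of 2 biological replicates (the source label of replicate 2 spells the line with another number, but its title gives MDA-MB-231), and the authors pooled both before calling sites. No value below therefore has an error between replicates, no comparison between groups can be tested, and no control or input library was analysed here.

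A site is a position at which sequenced RNA fragments (tags) lack a base. Reverse transcriptase can skip a base where an amino acid remains crosslinked to it. At 4 sites of these genes every tag carried the deletion, and the cause of the deletion was not tested for any site. For each site the list gives how many tags cover it and how many of these have the deletion. The intervals given below are 95% Wilson intervals of the percentage, and they cover counting error alone. Neighbouring sites share tags, so their values are not independent. How abundant each RNA was is not in these data, and its part in the number of tags was not tested.

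Proteins of the BCL2 family decide whether the outer membrane of mitochondria is breached during apoptosis. MCL1, BCL2L1 (BCL-xL) and BCL2L2 (BCL-w) promote survival by holding the effectors BAX and BAK1 in check, and the BH3-only proteins BCL2L11 (BIM) and BID release or activate those effectors. BNIP3, BNIP3L (NIX) and BCL2L13 sit in the same membrane and tether mitochondria to the autophagy machinery. The 3′UTRs of such transcripts set much of their stability, and many mRNA ends are made at a poly(A) signal, most often the hexamer AATAAA or its common variant ATTAAA, which lies shortly before the cleavage site. Other ends have a different hexamer or none.

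The sequences around 7 sites are printed below, and which of their bases RBMS3 contacts was not tested. They are the site with most deletions in the 3′UTRs of *MCL1*, *BCL2L1*, *BCL2L2*, *BID* and *BCL2L13*. For *MCL1* a site that stood apart from it is also given, and for *BCL2L2* an upstream site of the same cluster. Each is 30 nt of the transcript strand in DNA letters (hg38, 5′ to 3′), and the capitals mark the nearest poly(A) signal or, where there was none, a variant of it that differs by 1 base. The *MCL1* end site lies in chr1:150574556-150574585 and the internal site in chr1:150575966-150575995 (minus strand). The *BCL2L1* site lies in chr20:31664460-31664489 (minus strand), the *BCL2L2* sites in chr14:23311719-23311748 and chr14:23311654-23311683 (plus strand), the *BID* site in chr22:17735385-17735414 (minus strand) and the *BCL2L13* site in chr22:17729170-17729199 (plus strand).
MCL1 end: agaaaaaaaAATAAAtcttttattcaaata
MCL1 internal: gtcAATAAAgcaaatacttactgttttgtt
BCL2L1 end: agttcagtAATAAActgtgtttactcagtg
BCL2L2 end: aacaataAATAAAgcccagaagtttaatga
BCL2L2 upstream: ataattTATAAAtaccaagttcatttgact
BID end: actttaaaatatctacattAATATActtga
BCL2L13 internal: aaatttatgttttcaAATAAAatctcccta
The deleted base is letter 21 of the *MCL1* end sequence, 27 of the internal *MCL1* sequence, 22 for *BCL2L1*, 23 and 24 for the *BCL2L2* end and upstream sites, 5 for *BID* and 10 for *BCL2L13*. All 7 deletions were of a T that belongs to a run of 3 or 4 T. Within a run the skipped base cannot be told from its neighbours, and in these 7 the list gives the one with the lowest coordinate. In the *MCL1*, *BCL2L1* and *BCL2L2* end sequences the deletion followed the signal, whereas in *BID* and *BCL2L13* it came before the hexamer.

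All 3 pro-survival genes had sites at the ends of their transcripts, 15 in their 3′UTRs in total. *BCL2L1* (chromosome 20, 31664452 to 31723989, minus strand) had the most tags at a site among the 6 genes with a site in the 3′UTR. Its 3′UTR held 7 sites, and 6 of them formed a cluster close to 3 annotated ends that lie within a few bases of each other. At position 31664468, 750 of 26393 tags lacked a T (2.84%, interval 2.65 to 3.05%), 10 nt from the end of the representative transcript. Of the 6371 protein-coding genes with a 3′UTR site, 96.7% had a lower value for their most deletions at a site, and 94.9% had fewer tags at their best covered site.

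The other *BCL2L1* sites of this cluster stepped upstream through the poly(A) signal. At 31664480, on the AATAAA itself, 252 of 27967 tags had a deleted A (0.901%, interval 0.797 to 1.02%). Just before the signal, 179 of 25328 tags lacked a C at 31664485 (0.707%) and 114 of 23533 tags lacked a T at 31664486 (0.484%). The percentage was lowest at 31664504, with 52 of 12281 tags (0.423%, interval 0.323 to 0.555%), and higher again at 31664518, in a run of 3 T at the upstream edge, with 132 of 5333 tags (2.48%, interval 2.09 to 2.93%). Thus the highest percentages of the cluster stood at its 2 outer sites, both in runs of T, while the tags were most numerous over the signal. The last 3′UTR site, at 31664768, had 17 deletions in only 33 tags (51.5%, interval 35.2 to 67.5%), and here the deleted base was G.

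*MCL1* (chromosome 1, 150560895 to 150579738, minus strand), whose product is short-lived, had 5 sites in its 3′UTR, of which 4 clustered within 50 nt of the end of the representative transcript. The site nearest the end, at 150574565, had 161 deletions in 12110 tags (1.33%, interval 1.14 to 1.55%), 11 nt after the first base of AATAAA. Within the run of 9 A that leads into the signal, at 150574575, 92 of 12632 tags had a deleted A (0.728%, interval 0.594 to 0.892%). Further upstream, 146 of 7026 tags lacked a T at 150574598 (2.08%, interval 1.77 to 2.44%) and 53 of 5023 tags lacked a T at 150574608 (1.06%). The site in the run of A had the most tags, and its interval lay below those of the T runs at 7 and 40 nt from the end. Which A of this run was lost, in the signal or before it, cannot be told. In *BCL2L1* the site on the signal had the most tags. Its interval (0.797 to 1.02%) overlapped that of the next site upstream, 31664485 (0.611 to 0.818%), and lay above that of 31664486 (0.403 to 0.582%).

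The fifth *MCL1* site stood apart, 1411 nt before the end of the representative transcript, at 150575969. There 42 of 2096 tags had a deleted T (2.00%, interval 1.49 to 2.70%). An AATAAA begins 23 nt before it, as the printed internal sequence shows, although the nearest annotated end downstream is 1249 nt away.

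*BCL2L2* (chromosome 14, 23298790 to 23311751, plus strand) had 3 sites, in a single cluster at its end. At 23311741, 10 nt from the last annotated base, 214 of 4039 tags had a deleted T (5.30%, interval 4.65 to 6.03%), a higher percentage than at any *MCL1* site. At 23311722, the first A of an AATAAA, 59 of 5475 tags carried the deletion (1.08%, interval 0.836 to 1.39%). At 23311677, 63 of 841 tags had a deleted T (7.49%, interval 5.90 to 9.47%), and the signal-like hexamer TATAAA precedes it. The best covered site was once more the one on the signal, with the lowest percentage of the 3. The readthrough gene *BCL2L2-PABPN1* spans these positions on the same strand, so a tag cannot be given to *BCL2L2* with certainty.

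The BH3-only genes differed from each other. *BID* (chromosome 22, 17734138 to 17774770, minus strand), the link from death receptors to mitochondria, had 7 sites in its 3′UTR, all in 1 cluster. They did not lie at the end of the representative transcript, whose last 40 nt hold AATAAA and where there was no site. Instead they lay 23 to 68 nt before the end of the shorter transcript BID-204, at 17735364, and 1249 to 1294 nt before the representative end. The site with the most deletions was 17735410, with 120 of 6625 tags (1.81%, interval 1.52 to 2.16%), and the one with the most tags was 17735394, with 65 of 9394 (0.692%, interval 0.543 to 0.881%). The percentages of the other 5 sites lay between 0.489% and 1.14%.

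No AATAAA or ATTAAA was present within 25 nt of any of the 7 *BID* sites, nor in the last 40 nt of BID-204. What these windows share is TAATATA, which starts at most 14 nt after and at most 9 nt before the deletion in 6 of the 7. It matches the AUA motif that the study assigned to RBMS3 and contains AATATA, a variant of the poly(A) signal, which begins 31 nt before the end of BID-204. The deletion at 17735394 fell within this hexamer. Only 2 of the 7 *BID* sites had a deleted T, compared with 19 of the 25 sites in the other 5 genes.

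*BCL2L11* (chromosome 2, 111119378 to 111168444, plus strand), which encodes BIM, had no site in its 3′UTR. Its only site was intronic, at 111152857, where all 23 tags had a deleted T (100%, interval 85.7 to 100%). Of its 7 annotated ends, 4 have AATAAA or ATTAAA in the last 40 nt, including the end of the representative transcript, with the signal 18 nt before the last base. Whether these ends were covered by tags is not known.

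Neither effector gene had a site anywhere, on either strand. *BAX* (chromosome 19, 48954815 to 48961798, plus strand) and *BAK1* (chromosome 6, 33572547 to 33580293, minus strand) encode the proteins that form the pore. Both carry AATAAA 21 nt before the end of the representative transcript. The list gives no tag counts where no site was called, so whether these ends were covered is not known, and a site too weakly covered to be called cannot be told apart from a transcript that was not bound. Their 3′UTRs differ in length, with 162 nt for *BAX* and 1251 nt for *BAK1* in the representative transcripts.

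**Figure D1:**
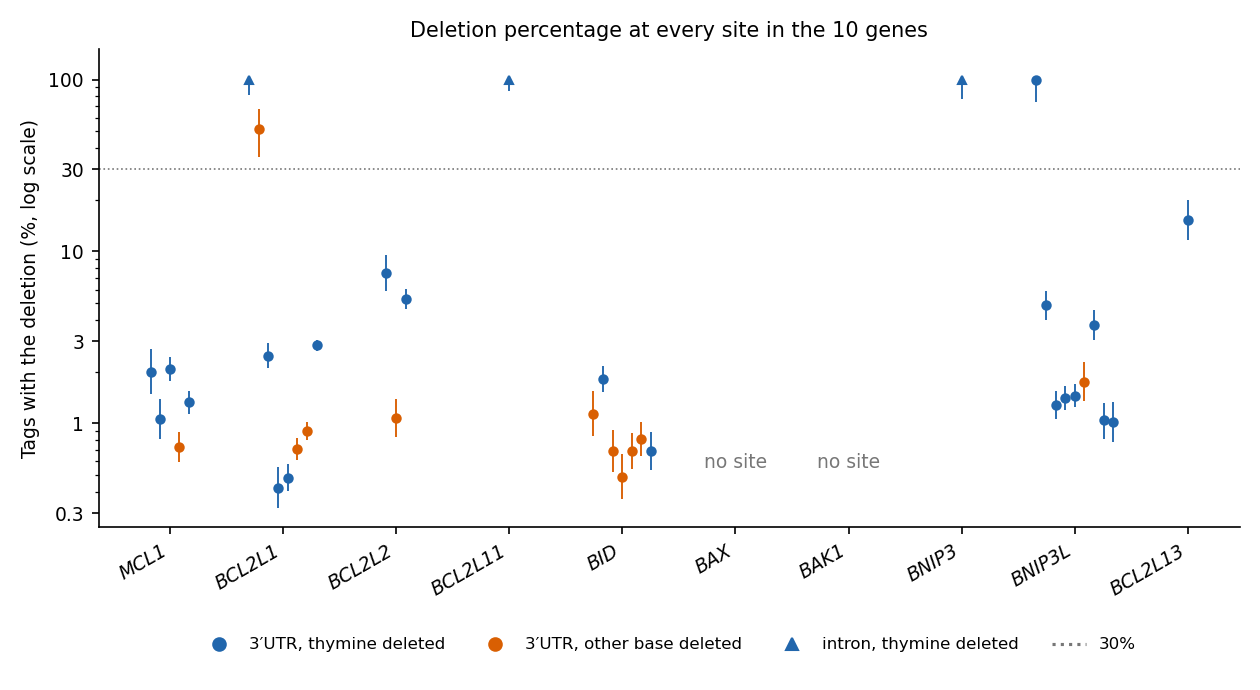
Percentage of tags with the deletion (log scale) at each of the 35 sites, by gene, in transcript order within a gene; points are sites, bars are 95% Wilson intervals, and the dotted line marks 30%. The 30 sites below the line are all in 3′UTRs, the 3 intronic sites are at 100%, and *BAX* and *BAK1* have no site.

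The receptors of mitophagy ranged from the gene with the most sites to one with no 3′UTR site. *BNIP3L* (chromosome 8, 26383054 to 26505636, plus strand) had 9 sites in its 3′UTR, and 92.3% of genes with a 3′UTR site had fewer. They formed 2 main groups about 2 kb apart. The downstream group lay 29 to 82 nt before the end of the representative transcript at 26413127, with 96 of 2567 tags at 26413045 (3.74%, interval 3.07 to 4.55%), 63 of 6082 tags at 26413064 (1.04%) and 53 of 5185 tags at 26413098 (1.02%). The signal of this end is ATTAAA, which starts 20 nt before the last base. The AUA motif was in the windows of the first 2 of these sites, as TTATATA.

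The upstream group of *BNIP3L* was the better covered. It held 161 deletions in 11079 tags at 26410902 (1.45%, interval 1.25 to 1.69%), 148 in 10581 tags at 26410896 (1.4%, interval 1.19 to 1.64%), 107 in 8355 tags at 26410886 (1.28%, interval 1.06 to 1.55%) and 100 in 2059 tags at 26410859 (4.86%, interval 4.01 to 5.87%). The first 3 do not differ beyond their intervals, and the fourth, at the upstream edge in a run of 8 T, is higher. These sites lie 146 to 189 nt before the nearest annotated end, that of BNIP3L-202, so they count as internal here. An ATTAAA begins 9 nt after the deletion at 26410902, and none of the 4 windows holds the AUA motif. A further site, at 26410973 in a run of 8 A that overlaps an AATAAA, had 53 deletions in 3029 tags (1.75%). At 26410674, all 11 tags had a deleted T.

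*BNIP3*, the closest relative of *BNIP3L* (chromosome 10, 131967684 to 131981967, minus strand), had 1 site, in an intron, where all 13 tags had a deleted T at 131981303 (100%, interval 77.2 to 100%). Its representative transcript has AATAAA 25 nt before the end, yet no site was called there. Thus these relatives had 9 and 0 called sites in their 3′UTRs, but whether the end of *BNIP3* was covered by tags is not known.

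*BCL2L13* (chromosome 22, 17628855 to 17730855, plus strand) had 1 site, at 17729179, where 44 of 287 tags had a deleted T (15.3%, interval 11.6 to 20%). Of the genes with a 3′UTR site, 14.8% had fewer tags at their best covered site. The site is internal, 1443 nt before the nearest annotated end downstream, but an AATAAA starts 6 nt after the deletion, and a transcript annotated as a target of nonsense-mediated decay ends upstream of it, at 17729140. The end of the representative transcript has neither AATAAA nor ATTAAA in its last 40 nt.

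**Figure D2:**
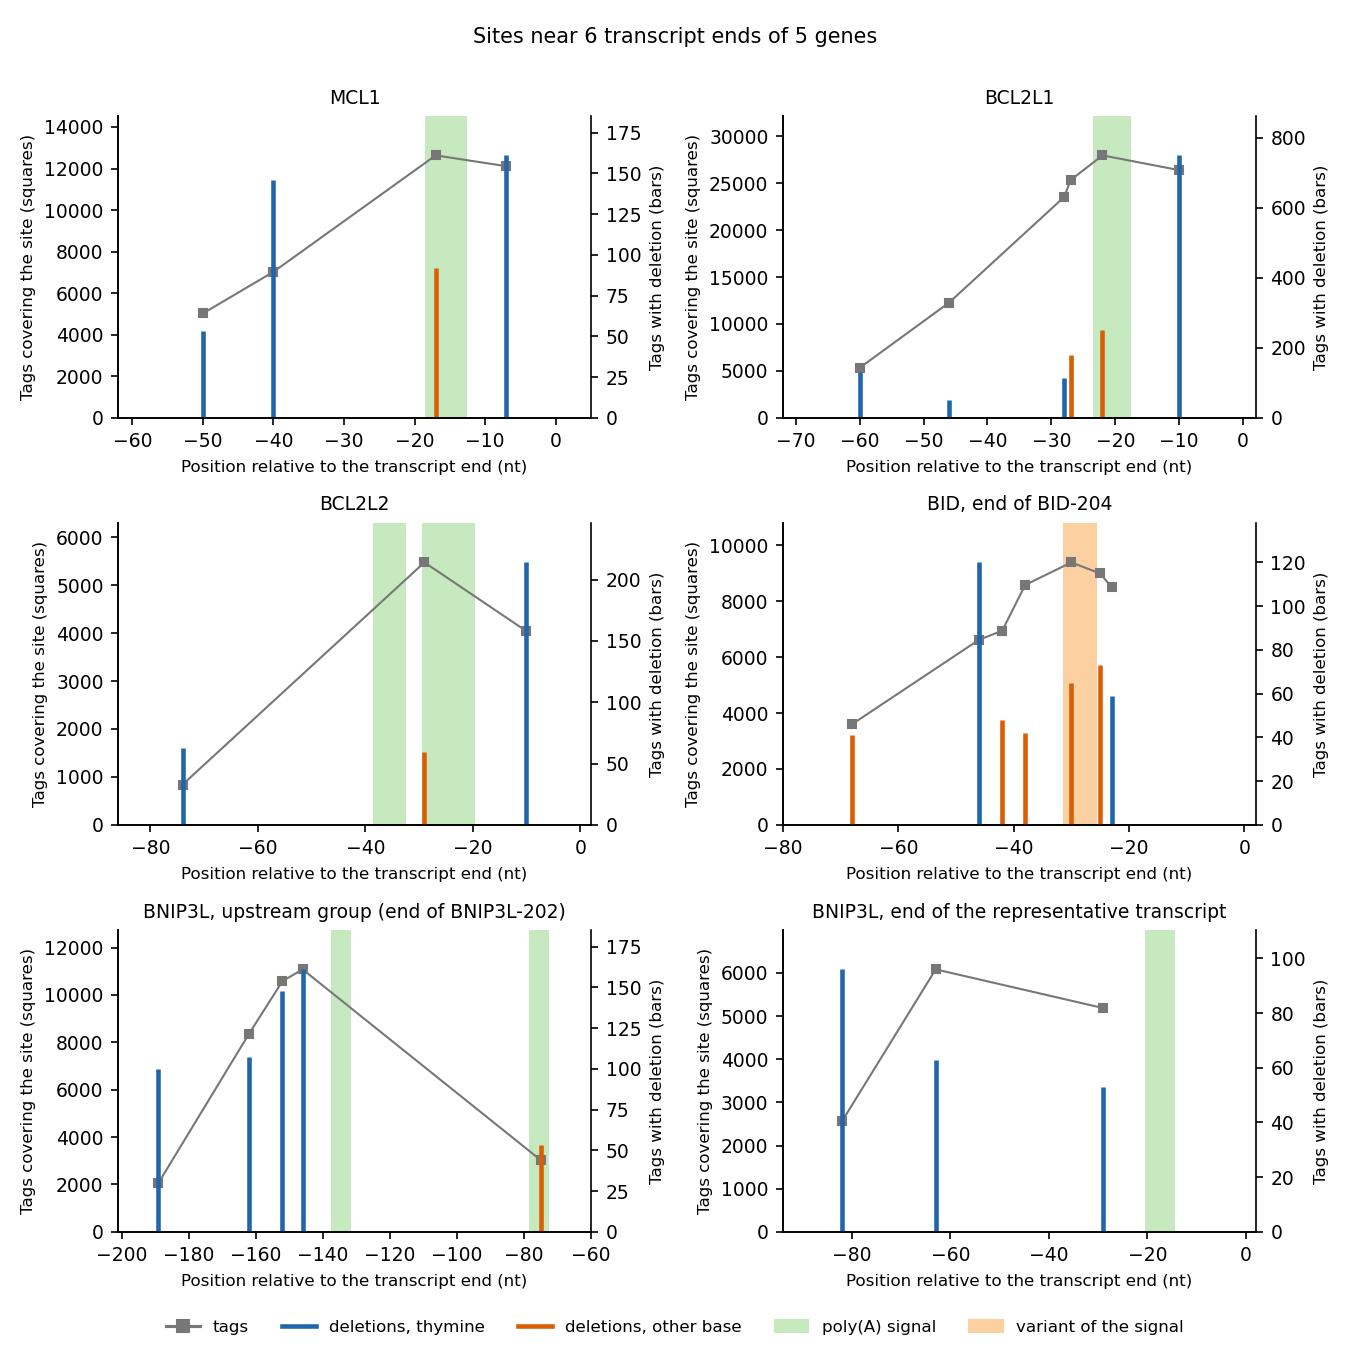
Sites with deletions in under 30% of tags near 6 transcript ends of 5 genes, plotted by distance in nt from the end (0); grey squares show tags covering the site (left axis), bars show tags with the deletion (right axis, coloured by deleted base), and shading marks a poly(A) signal or, for *BID*, its variant. In *BCL2L1* and *BCL2L2* the tags peak on the signal, and in *MCL1* they peak in a run of A that leads into it. In these 3 genes the site with the most deletions lies after the signal, whereas in *BID* and in both *BNIP3L* groups it lies before the signal or variant. The *BID* sites nearest the end, at 23 and 25 nt, lie after the variant.

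Several features were counted across the sites of the genes. In each of the 6 genes bound in the 3′UTR, the top site by deletions had a T deleted, and in all 6 this T was in a run of 2 or more. The share of such top sites over all genes was not counted, so nothing particular to these 6 is read from this. T was the deleted base at 21 of the 32 sites (65.6%, exact Clopper-Pearson interval 46.8 to 81.4%), beside 65.5% of all 3′UTR sites. At 17 sites (53.1%) it was in a run of 3 or more T, beside 45.6% of all 3′UTR sites. A was deleted at 7 sites (21.9%, beside 21.5%), C at 3 (9.38%, beside 7.12%) and G at 1 (3.12%, beside 5.9%). Among sites with deletions in under 30% of tags, the median percentage was 1.63% for the 20 with a deleted T and 0.901% for the 7 with a deleted A, and over all genes it was 2.18% and 0.862%.

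Of the 32 sites, 24 (75%, exact interval 56.6 to 88.5%) lay within 100 nt of an annotated transcript end, beside 69.1% of 3′UTR sites in all protein-coding genes. The median distance was 44 nt, compared with 34 nt over all genes. Deletions were in under 30% of the tags at 30 sites (93.8%, exact interval 79.2 to 99.2%), beside 87.1%. The exact intervals treat sites as independent, which sites of 1 gene are not, so they are too narrow.

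The window of 25 nt on each side held AATAAA or ATTAAA at 14 of the 32 sites (43.8%, exact interval 26.4 to 62.3%), beside 65.4% of all 3′UTR sites. With 1 site per cluster it was 63.6% (7 of 11), and the share per cluster over all genes was not counted. None of the 14 was in *BID*, and without the 7 *BID* sites, which form 1 cluster, the share was 56% (14 of 25), a count made after the values were seen. When variants of the signal with 1 base changed (the hexamer AGTAAA or TATAAA or CATAAA or GATAAA or AATATA or AATACA or AATAGA or ACTAAA or AAGAAA) were counted too, 22 sites (68.8%) had a hexamer, beside 79.1%. The AUA motif has the form NNATANA, in which the first letter is A, G or T and the other open letters are A or T. On the transcript strand it was in the window of 18 sites (56.2%, exact interval 37.7 to 73.6%), beside 51.7% of all 3′UTR sites. As the motif can overlap the signal, matches that contain no AATAAA were counted separately. They were present at 9 sites (28.1%, exact interval 13.7 to 46.7%), beside 15.5%, and 6 of the 9 were in *BID*. Without *BID* they were at 3 of 25 sites (12%). The *BID* matches hold the variant AATATA, and the *BCL2L2* match near 23311677 holds TATAAA. These matches are therefore not outside every hexamer counted above. How many such matches over all genes hold a variant was not counted.

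**Figure D3:**
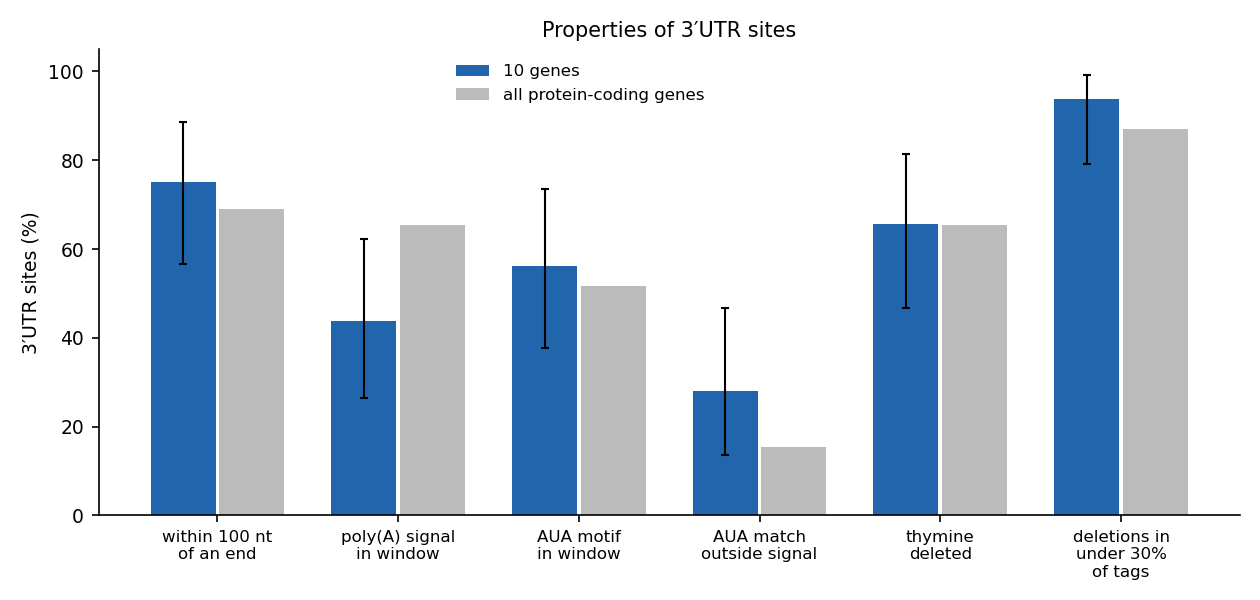
Percentage of 3′UTR sites with each of 6 properties, for the 32 sites of the 10 genes (blue) and for the 21222 sites of all protein-coding genes (grey); error bars are 95% exact intervals of the 32 sites taken as independent. The AUA match outside the signal is a match without AATAAA, and it can hold a variant of the signal. The interval of the 10 genes includes the value of all genes for each property except the poly(A) signal in the window (43.8% and 65.4%). Sites of 1 gene are not independent, so the intervals are too narrow, and with 1 site per cluster the signal share was 63.6% (7 of 11). The grey bars count every site, and no share per cluster was counted over all genes.

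A poly(A) signal at an annotated end was not always accompanied by a site. Of 50 annotated ends of transcripts with a 3′UTR in these genes, 23 have AATAAA or ATTAAA in the last 40 nt. A site lay within 100 nt upstream of 8 of them and of none of the other 15. Nearby ends of a gene share sites, so the 8 are not independent, and the 3 closest ends of *BCL2L1* have the same 6 sites. In addition, 2 ends without a signal had a site within 100 nt upstream, those of BID-204 and BNIP3L-202. Among the 10 representative ends, 9 have a signal, and 4 of these had sites, in *MCL1*, *BCL2L1*, *BCL2L2* and *BNIP3L*. The share of such ends with a site over all protein-coding genes was not counted, so nothing particular to these genes is read from the counts.

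At the level of genes, 8 of the 10 had a site anywhere, beside 37.6% of 20046 protein-coding genes, and 6 had one in the 3′UTR (60%), beside 31.8%. Sites can be called only in RNA that the cells make, and the share of expressed genes is not in these data, so nothing particular to the 10 genes is read from these shares. Among genes with a 3′UTR site the median of the highest tag count was 3238, and 5 of the 6 genes were above it, from 5475 tags in *BCL2L2* to 27967 in *BCL2L1*.

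**Figure D4:**
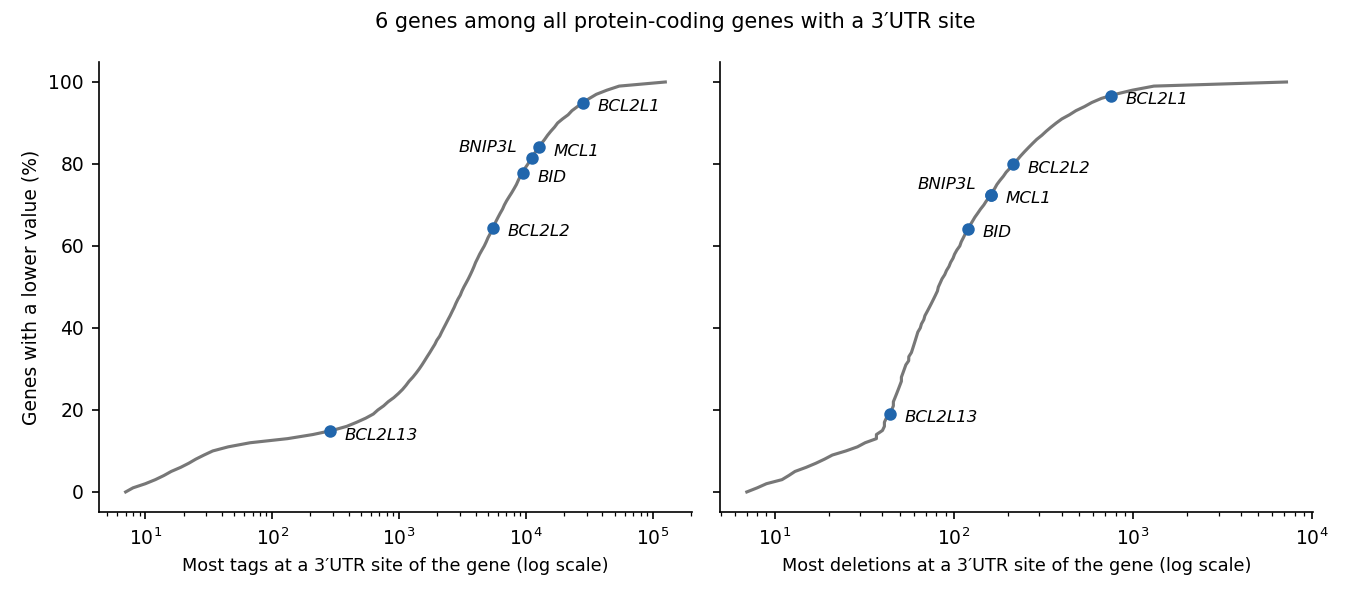
Share of protein-coding genes with a 3′UTR site that have a lower value (vertical axis, %) against the most tags (left) and the most deletions (right) at a 3′UTR site of a gene (log scales); the grey line is all 6371 genes and the points are the 6 named genes. *BCL2L1* stands near the top in both (94.9% and 96.7%), while *BCL2L13* is at 14.8% and 19%.

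Other genes of these pathways were counted from a list of 56. A site in the 3′UTR was present in 33 of them (58.9%), with 97 sites in total, beside 31.8% of all protein-coding genes. As for the 10 genes, nothing particular to these lists is read from their shares, since expression is not in these data. The remaining BCL2 family members were bound in 3 of 13 genes. *PMAIP1*, which encodes the BH3-only protein NOXA, had 4 sites, with up to 226 deletions in 5843 tags (3.87%). *BAD*, another BH3-only gene, had 47 deletions in 1176 tags (4%), and *BCL2L12* had 60 in 1077 (5.57%). No site was called in *BCL2* itself, nor in *BCL2A1*, *BCL2L10*, *BCL2L14*, *BCL2L15*, *BOK*, *BIK*, *BMF*, *HRK* and *BBC3*. Of the other 3 BNIP genes, *BNIP2* had 4 sites (most deletions 76 of 3587 tags, 2.12%) and *BNIP1* had 1 (50 of 491 tags, 10.2%), while *BNIPL* had none.

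Downstream of mitochondria, 6 of 13 genes for caspases and released factors had a 3′UTR site, with 12 sites in total. All 3 *VDAC* genes, which encode channels of the outer membrane, were bound, with 1052 deletions in 17139 tags at the top site of *VDAC2* (6.14%), more than at any site of the 10 genes. Among inhibitors of apoptosis it was 3 of 5 genes, led by *BIRC2* with 183 of 4435 tags (4.13%), and among death receptors and their adaptors 6 of 7, led by *TNFRSF1A*, the TNF receptor, with 612 of 18582 tags (3.29%). Of 12 further mitophagy genes 10 had a site, and *SQSTM1*, the autophagy adaptor p62, led with 624 of 19445 tags (3.21%). For 4 of the 33 genes no 3′UTR site was below 30%.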

How the data were processed

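Sites were taken from the single list deposited for 2 CLIP-seq libraries. Per the study's methods, the authors appended molecular identifiers to the reads and ran the CLIP Tool Kit, aligned to hg38, pooled the tags of both replicates, and called crosslinking-induced deletions at a false discovery rate under 10% and a fold over 10; versions are not given in the sources used here. The deposited values are counts of tags and of deletions per site, not normalized. Library totals were not analysed here, so depth is given per site. RNA was captured and primed through poly(A), so native mRNA ends can be captured without the added tail, which bears on sites near ends.

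Each interval spans 21 nt, and its centre was taken as the deletion (checked at mitochondrial position 3107, a listed centre where hg38 has N). A site was given to each protein-coding gene that holds it on its strand, in the order 3′UTR, 5′UTR, coding exon, other exon, intron. The stop codon was not counted in the 3′UTR. Distances run to the nearest annotated end downstream in the gene, any transcript; the representative transcript is the Ensembl canonical one. Sites within 50 nt form a cluster. Windows have 25 nt on each side. The members, gene lists and alternatives were chosen with earlier results of these data known. The text names the 10 genes with their sites, the other BCL2 and BNIP genes of the list with a site, and the gene with the most deletions in each further list, of which 1 is not reported here. No test was made. Placement, distances and base reading were checked on sites planted at known places. Python 3.11.15, numpy 2.4.6, scipy 1.17.1, pysam 0.24.0 and matplotlib 3.10.9 were used.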

Additional observations from a re-analysis of the deposited data

How the results depend on the processing

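Of 37 alternatives, 18 left the value within its exact interval, or a count within 1.5 times. When sites needed deletions in 10% of tags, 6 sites remained in the 10 genes, 3 genes had a 3′UTR site, 10 other pathway genes had one, and 0% of the 3 sites left lay within 100 nt of an end. Counting 1 site per cluster gave 14 sites, with 54.5% of the 11 in 3′UTRs within 100 nt of an end, 63.6% with AATAAA or ATTAAA and 81.8% with a deleted T. The share near an end was 56.2% within 50 nt and 50% with 1 representative transcript per gene, since the *BID* sites and 1 *BNIP3L* site then lose their end. AATAAA or ATTAAA was in 18.8% of windows of 10 nt on each side, in 65.6% of those of 50 nt and, with variants, in 68.8%. The AUA motif was in 28.1%, 75% and, for matches without AATAAA, 28.1%. T was deleted at 20% of the 5 sites outside runs and at 81.8% of sites that reached 1% of tags. With at least 20 deletions, 100% of sites had deletions in under 30% of tags. Leaving out *BID*, an alternative added after the data were seen, kept within their intervals the shares near an end (68%), with AATAAA or ATTAAA (56%), with the AUA motif (48%) and with a deleted T (76%), whereas AUA matches without AATAAA came to 12%, below the interval of 13.7 to 46.7%.

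No paired analysis was possible because the samples form 1 group, and leaving out a replicate was not run since the sites were called on the pool. Where no site was called, the depth is unknown.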

Other observations

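The span of *BNIP3L* in the annotation reaches 26505636 through a single long transcript, and 3 sites within it lay on the opposite strand, in *PNMA2*. They had 91 deletions in 12477 tags, 50 in 9746 and 41 in 2070, and the other 9 genes had no site on the opposite strand.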
